A study of Mus musculus with 8 samples.

Results

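The constant genes of the immunoglobulin chains and the J chain gene were examined in mouse 4T1 tumors. The members are the 10 genes Igkc, Iglc1, Iglc2, Ighm, Ighg1, Ighg2b, Ighg2c, Ighg3, Igha, and Jchain, taken by gene name from a count table of 54532 genes, and 10 of 10 were found. The cells, given as 4T1 and triple-negative breast cancer in the labels and as the luciferase line 4T1-FLuc in the methods, were grown under the skin of female BALB/cJ mice aged 6 weeks at injection, and the tumors therefore also held host cells. Control mice received saline, which another label field calls PBS control, and treated mice received mAb-DXd/IMQ, a humanized CD276 antibody that carries 2 drugs, in 5 courses of 16 mg/kg given 4 days apart. DXd is a topoisomerase I inhibitor and IMQ an agonist of TLR7 and TLR8. Bulk RNA of 4 saline tumors and 4 mAb-DXd/IMQ tumors was sequenced, and total counts ranged from 45019927 to 69582375 in saline tumors and from 34591912 to 51625237 in mAb-DXd/IMQ tumors.

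An antibody pairs heavy chains with kappa or lambda light chains, and plasma cells secrete it in large amounts. The heavy chain constant gene sets the class. B cells first use Ighm for IgM, and class switching replaces it with an Ighg gene for an IgG subclass or with Igha for IgA. The J chain links IgM and IgA units into polymers, and plasma cells of other classes also transcribe it. A constant gene can also be transcribed from its own promoter without a joined variable segment, and total counts per gene do not separate such transcripts, or secreted from membrane forms.

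The 4 IgG genes lie side by side on chromosome 12 and resemble each other, and the hinge exon is a place where they differ. The hinge exons are shown because counts on these genes can be told apart only through such differences. Each is exon 2 of the secreted transcript in GENCODE M21 on GRCm38, on the minus strand, with cysteine codons in capitals: Ighg1 at chr12:113329844-113329882, Ighg2b at chr12:113307261-113307326, Ighg2c at chr12:113288263-113288325, and Ighg3 at chr12:113360529-113360576.
Ighg1: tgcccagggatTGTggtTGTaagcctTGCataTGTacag
Ighg2b: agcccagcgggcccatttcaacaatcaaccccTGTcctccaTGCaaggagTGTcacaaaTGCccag
Ighg2c: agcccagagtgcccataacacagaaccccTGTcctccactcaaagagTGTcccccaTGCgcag
Ighg3: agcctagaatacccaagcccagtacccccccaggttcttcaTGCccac
The exons held 4, 4, 3, and 1 cysteine codons in that order, and were 39, 66, 63, and 48 bases long. In the reference transcripts, 100% of the 100-base windows of each of the 10 members occurred in no other gene. With 50-base windows the share was 99.6% for Ighg1, 95.9% for Ighg2b, 94.5% for Ighg2c, 98.4% for Ighg3, and 92.3% for Iglc2, so counts on these genes are uncertain for short matches. These sequences are of the reference strain. BALB/c mice carry Ighg2a in the place of Ighg2c, no row analysed here has that name, and how Ighg2a reads were counted was not tested, so values of Ighg2c may hold them.

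The members' summed counts were highest in saline tumors 4 and 2, the groups overlapped in the sum, and the members did not move together. Igkc and Ighg1 fell, while the levels of Ighm and Igha overlapped between the groups. Ighm was the most counted member in 4 of 4 mAb-DXd/IMQ tumors, with 69.0% to 81.5% of the members' counts. In saline tumors the most counted member was Igkc in tumors 1 and 4, Ighg1 in tumor 2, and Ighm in tumor 3.

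Igkc, the kappa light chain constant gene (ENSMUSG00000076609, chr6:70726435-70726966), had 166, 1061, 194, and 8717 counts in saline tumors 1 to 4 and 24, 60, 47, and 34 counts in mAb-DXd/IMQ tumors 1 to 4. Scaled to CPM (counts in proportion to the library) with TMM library sizes, these were 3.36, 23.9, 3.47, and 127 CPM against 0.495, 1.28, 1.03, and 0.955 CPM. Saline tumor 4 was far above the others and held 86.0% of the saline counts, saline tumor 2 was next, and the groups did not overlap. The overlapping lincRNA gene Gm30211 had 17 counts, all in saline tumor 4. The lambda genes were sparse. Iglc1 had 32 counts in saline and 2 in treated tumors, and was at 0 in 5 of 8 tumors. Iglc2 had 33 and 17 counts, and 27 of its saline counts came from saline tumor 4.

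Ighm, the constant gene of IgM (ENSMUSG00000076617, chr12:113418558-113422730), had 2.84, 16.4, 15.4, and 19.3 CPM in saline tumors and 14.4, 10.8, 13.9, and 6.26 CPM in mAb-DXd/IMQ tumors. Saline tumor 1 was the lowest of the 8 tumors and the groups overlapped. Igha, the constant gene of IgA (ENSMUSG00000095079, chr12:113254830-113260236), had 1.52, 1.40, 0.913, and 1.46 CPM in saline tumors and 2.62, 2.12, 1.05, and 0.871 CPM in mAb-DXd/IMQ tumors. The mAb-DXd/IMQ tumors spanned the saline range, and saline tumors 2 and 4, which were high for Igkc, did not stand out for Igha.

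Among the IgG genes, Ighg1 (ENSMUSG00000076614, chr12:113325240-113330523) had 70, 2095, 113, and 2185 counts in saline tumors, or 1.42, 47.3, 2.02, and 31.9 CPM. In mAb-DXd/IMQ tumors it had 25, 12, 0, and 7 counts, or 0.515, 0.257, 0, and 0.197 CPM. Saline tumors 2 and 4 were high, saline tumors 1 and 3 were low but above each mAb-DXd/IMQ tumor, and 3 counts in mAb-DXd/IMQ tumor 3 would be 0.0655 CPM. Ighg3 (ENSMUSG00000076615, chr12:113356224-113361232) had 0, 0, 4, and 4076 counts in saline tumors and 10, 8, 0, and 2 counts in mAb-DXd/IMQ tumors. Saline tumor 4 thus held 99.9% of the saline counts on Ighg3, and the groups overlapped without it and with it. Ighg2c had 5, 32, 55, and 2389 counts in saline tumors and 1, 4, 3, and 3 counts in mAb-DXd/IMQ tumors, so that 96.3% of its saline counts came from saline tumor 4. Ighg2b had 24, 84, 10, and 62 counts in saline tumors and 4, 8, 8, and 2 counts in mAb-DXd/IMQ tumors, with saline tumor 2 the highest.

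Jchain (ENSMUSG00000067149, chr5:88519809-88527891) had 1.36, 7.10, 1.00, and 27.4 CPM in saline tumors and 0.330, 0.471, 0.720, and 0.337 CPM in mAb-DXd/IMQ tumors. It was highest in the same saline tumors as Igkc, tumors 4 and 2, and the groups did not overlap.

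**Figure D1:**
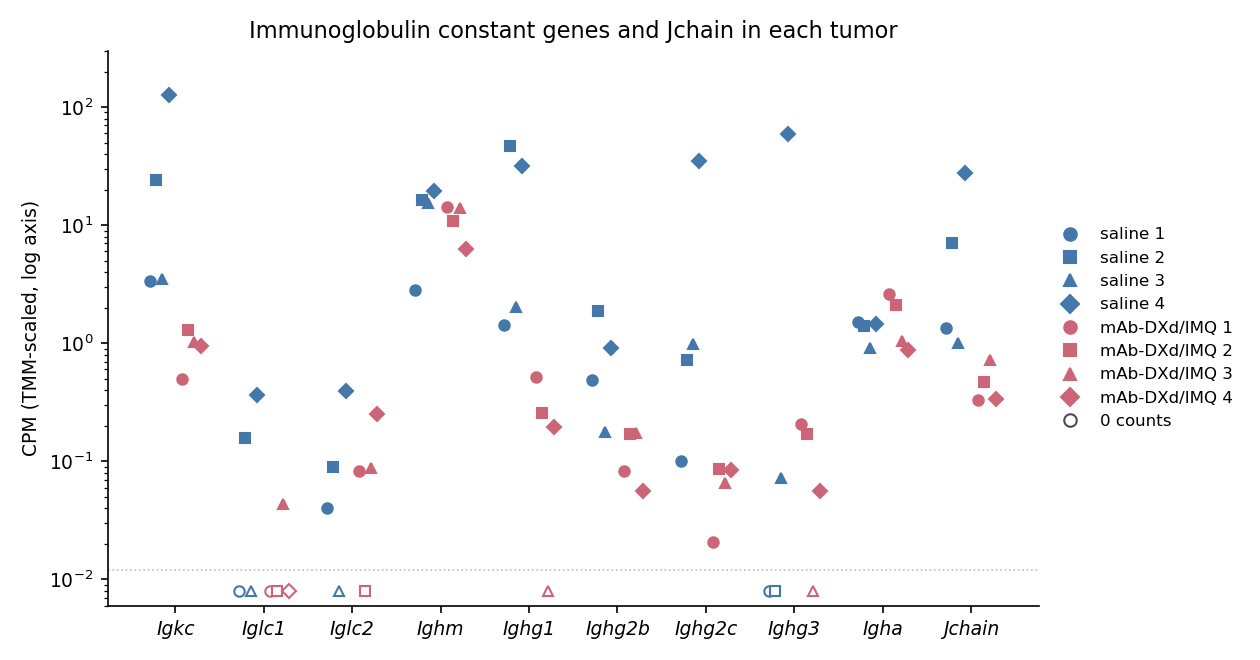
CPM of each of the 10 genes (log axis) in each tumor, with saline tumors in blue, mAb-DXd/IMQ tumors in red, a symbol per tumor number, and open symbols under the dotted line for 0 counts. Saline tumor 4 is the highest point for Igkc at 127 CPM and for Ighg3 at 59.6 CPM, and the groups overlap for Ighm and Igha.

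Per kilobase of deposited gene length, the mean order in saline tumors was Igkc (74.3 ± 112 CPM per kb, SD, n = 4), Ighg1 (7.97 ± 8.78), Ighm (7.15 ± 3.87), Ighg2c (6.93 ± 12.9), Ighg3 (5.94 ± 11.9), and Jchain (3.66 ± 4.94). The other 4 members were each under 0.50 CPM per kb. Neighbors in this order differed by less than the larger of their SDs. The order depended on saline tumor 4 and on the length used. By median, Ighm (8.43 CPM per kb) was above Ighg1 (6.55), Ighg2c was at 0.643, and Ighg3 was at 0.0143. With lengths of the secreted forms the means were 19.2 CPM per kb for Ighg1, 13.8 for Ighg3, 9.03 for Ighm, and 8.27 for Ighg2c. In mAb-DXd/IMQ tumors the order was Ighm (6.02 ± 1.98 CPM per kb, SD, n = 4), Igkc (1.77 ± 0.618), Igha (0.624 ± 0.316), Jchain (0.185 ± 0.0724), and Iglc2 (0.173 ± 0.173), with the other 5 members at 0.0934 or less. There Ighm, Igkc, and Igha were separated by more than their SD, and Jchain and Iglc2 were not. With lengths of the secreted forms Igha was at 1.51 ± 0.765 CPM per kb (SD, n = 4) and no longer separated from Igkc.

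The differences were tested with edgeR's quasi-likelihood test over 18511 genes, and a gene passed at an adjusted p under 0.05 (Benjamini-Hochberg) with an absolute log2 fold change above 0.58. A gene was tested when it reached 0.209 CPM in at least 4 tumors, which 5 of the 10 members did: Igkc, Ighm, Igha, and Jchain reached it in 8 of 8 tumors, and Ighg1 in 4 saline and 2 mAb-DXd/IMQ tumors. Of the 10 members, 2 passed, both lower in mAb-DXd/IMQ tumors, where 0.519% of tested genes were called lower and 1.06% were called in either direction. Igkc had a log2 fold change of -5.40 (SE 1.14, adjusted p = 0.0489, edgeR), and 4 of 4 mAb-DXd/IMQ tumors were below each saline tumor. Ighg1 had a log2 fold change of -6.38 (SE 1.26, adjusted p = 0.0409, edgeR), also with 4 of 4 tumors below. The fitted fold change of Ighg1 rests on 44 counts in the mAb-DXd/IMQ tumors together. Jchain had a log2 fold change of -4.30 (SE 0.98) and did not pass (adjusted p = 0.0557, edgeR). The log2 fold change of Ighm was -0.25 (SE 0.46, adjusted p = 0.820, edgeR) and that of Igha was 0.33 (SE 0.39, adjusted p = 0.690, edgeR), both smaller than their SE.

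Groups did not overlap for 3 of the 5 tested members (Igkc, Ighg1, and Jchain), each with lower values in mAb-DXd/IMQ tumors, against 7.11% of tested genes. Among the 5 untested members the same held for Ighg2b and Ighg2c, against 0.641% of untested genes with a count, but by narrow margins. The nearest tumors had 0.179 and 0.175 CPM for Ighg2b (10 and 8 counts) and 0.101 and 0.0856 CPM for Ighg2c (5 and 4 counts). The share of 0.641% is not a like background. It includes genes with as few as 1 count, and a gene at 0 in a saline tumor cannot be lower without overlap. Ighg2b and Ighg2c each reached the filter level in 3 saline and 0 mAb-DXd/IMQ tumors. Their separation is therefore not counted as support. The calls of Igkc and Ighg1 depended on single tumors, while the fold changes stayed large. Over the 8 fits that leave out a tumor, the log2 fold change of Ighg1 lay between -7.10 and -5.58, and that of Igkc between -5.78 and -5.18 except without saline tumor 4. Without saline tumor 1 the adjusted p was 0.0294 for Igkc and 0.0254 for Ighg1, and Jchain also passed (adjusted p = 0.0390, edgeR). Without any 1 of the other 7 tumors, which are saline tumors 2, 3, and 4 and mAb-DXd/IMQ tumors 1, 2, 3, and 4, the adjusted p lay between 0.0662 and 0.132 for Igkc and between 0.0622 and 0.122 for Ighg1 (edgeR). Without saline tumor 4 the log2 fold change of Igkc was -3.44 and that of Jchain -2.75. Without saline tumor 1, the lowest for Ighm, that of Ighm was -0.59 (adjusted p = 0.250 and unadjusted p under 0.05, edgeR), and without mAb-DXd/IMQ tumor 4 that of Igha was 0.55 (adjusted p = 0.502, edgeR). Without each of these 7 tumors in that order, 0 members passed, while 0.582%, 0.0529%, 0.0581%, 1%, 0.401%, 0.467%, and 0.0635% of tested genes did, and Igkc, Ighg1, and Jchain each had an unadjusted p under 0.05 (13.8% to 21.8% of tested genes). Ighg2b and Ighg2c entered some of these fits only through saline tumors and are left out of that count. Without saline tumor 1, 4 members passed (1.08% of tested genes). Of these, Ighg2c entered that fit only through saline tumors, since no mAb-DXd/IMQ tumor reached the filter, and its call is not counted as support. With DESeq2 in place of edgeR 3 members passed (4.25% of tested genes), and with no filter on low counts 4 did (1.14%). The 4 members again include Ighg2c, whose call is not counted as support there either. In bulk tumors, fewer plasma or B cells and less RNA per cell cannot be told apart.

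**Figure D2:**
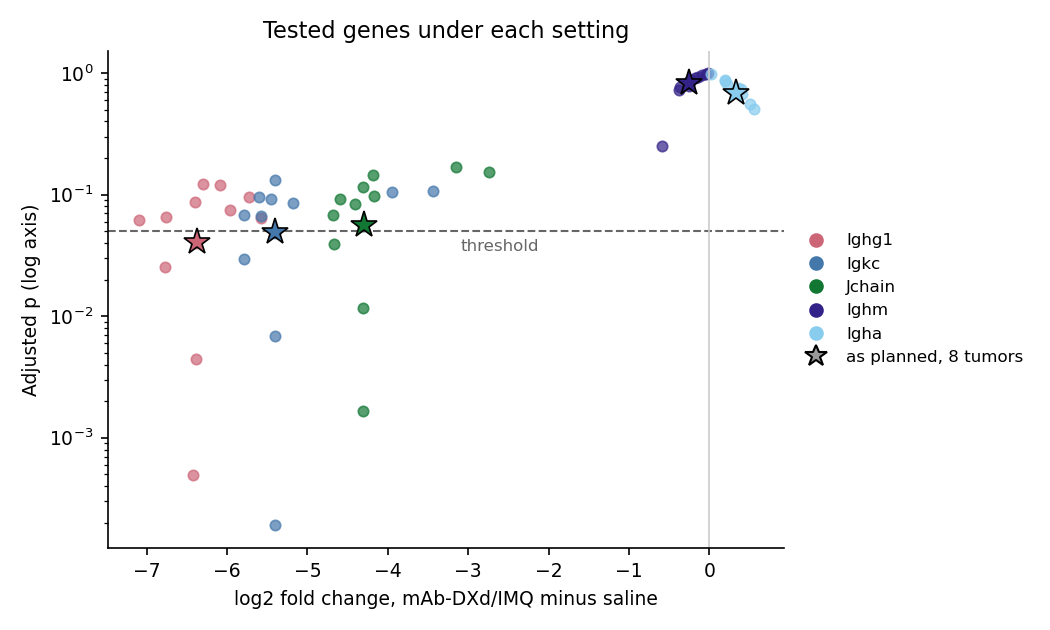
Log2 fold change (mAb-DXd/IMQ minus saline) against the edgeR or DESeq2 adjusted p (log axis) of the 5 tested genes, with a star for the planned fit and a dot for each of 12 alternatives. Igkc, Ighg1, and Jchain are at or below -2.75 in each fit and lie on both sides of the threshold line, while Ighm, from -0.59 to -0.018, and Igha, from 0.026 to 0.55, pass in none of the fits shown.

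The members' summed level was 11.1, 99.0, 24.01, and 304 CPM in saline tumors and 18.7, 15.4, 17.1, and 9.07 CPM in mAb-DXd/IMQ tumors. Saline tumor 1 was thus below 3 of the 4 mAb-DXd/IMQ tumors in the sum, and the groups overlapped. The saline mean of 109 ± 135 CPM and the mAb-DXd/IMQ mean of 15.1 ± 4.23 CPM (SD, n = 4 each) differed by -94.4 CPM, less than the saline SD. Without saline tumor 4 the saline mean was 44.7 ± 47.5 CPM and the difference was -29.6 CPM.

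Class composition was compared as shares, in which a change common to all heavy chain genes cancels. The IgM share also rises when the IgG genes fall. Mean Ighm was 13.5 CPM in saline and 11.4 CPM in mAb-DXd/IMQ tumors, while mean Ighg1 was 20.7 and 0.242 CPM. The shares of IgM and IgG are therefore not separate from the fall of Ighg1, and a higher IgM share is not a gain of Ighm. For each tumor, counts per length of Ighm were divided by those of the 6 heavy chain genes. The IgM share was 52.2% (95% interval 46.7 to 57.7), 30.4% (28.6 to 32.1), 80.6% (78.2 to 82.8), and 13.9% (13.2 to 14.6) in saline tumors 1 to 4. In mAb-DXd/IMQ tumors it was 85.3% (83.1 to 87.3), 84.1% (81.3 to 86.5), 93.6% (91.8 to 95.0), and 86.7% (82.6 to 90.0). The saline tumors were spread widely, the mAb-DXd/IMQ tumors were close together, and each of these lay above each saline tumor. The nearest were saline tumor 3 and mAb-DXd/IMQ tumor 2, whose intervals overlapped. The intervals are Wilson intervals of the count share carried to the per-length scale, and they cover counting error only. The means were 44.3 ± 28.9% (SD, n = 4) and 87.4 ± 4.24% (SD, n = 4), a difference of 43.1 percentage points (two-sided exact permutation test, p = 0.0286, the smallest that 70 assignments allow; adjusted p = 0.0857 over 3 shares). The result did not pass the adjustment, and without any 1 of the 4 mAb-DXd/IMQ tumors the unadjusted p was 0.0571 (exact permutation test). With lengths of the secreted forms in place of the deposited lengths, the IgM shares were 37.1%, 18.8%, 72.9%, and 9.85% in saline tumors and 75.4%, 74.0%, 88.9%, and 78.4% in mAb-DXd/IMQ tumors, and again did not overlap.

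**Figure D3:**
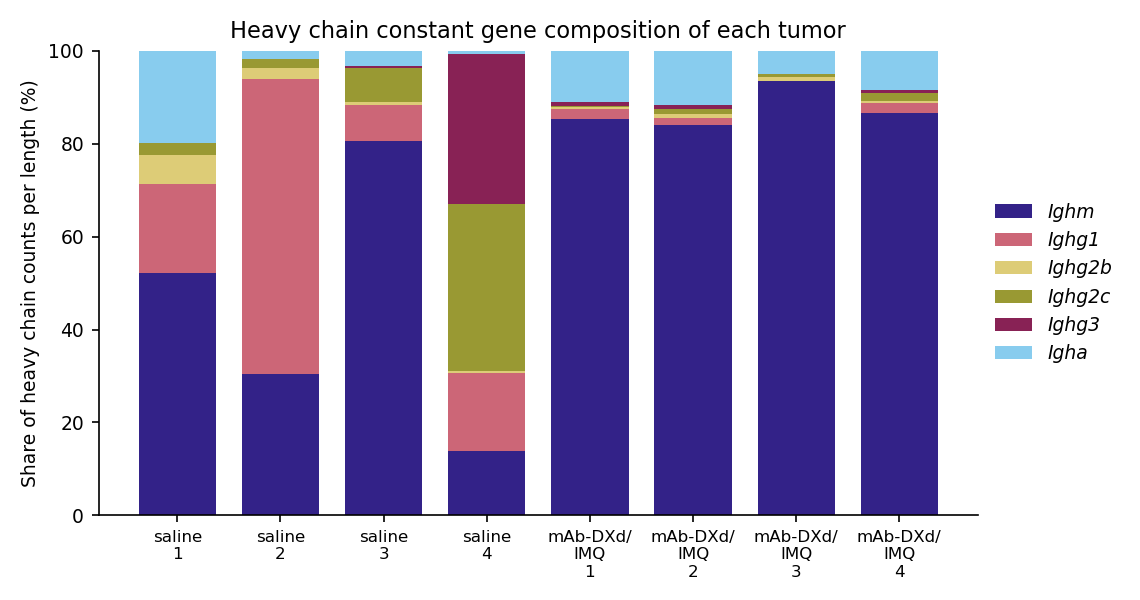
Share of each of the 6 heavy chain constant genes in the heavy chain counts per length (percent, stacked to 100) in each tumor. Ighm takes 84.1% to 93.6% in mAb-DXd/IMQ tumors, while Ighg1 leads saline tumor 2 at 63.5% and Ighg2c with Ighg3 lead saline tumor 4 at 35.8% and 32.3%, an order that turns to 23.9% and 42.0% with lengths of the secreted forms.

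The saline tumors differed from each other in which switched class they held. Saline tumor 2 was mainly IgG1, with Ighg1 at 63.5% (95% interval 61.6 to 65.3) of heavy chain counts per length. Saline tumor 4 held Ighg2c at 35.8% (34.8 to 36.9), Ighg3 at 32.3% (31.4 to 33.1), and Ighg1 at 16.8% (16.1 to 17.4). The order of these genes depended on the length used. The deposited length is 1326 bases for Ighg2c and 2512 for Ighg3, while the secreted forms have 1111 and 1082 bases, and with these Ighg3 led at 42.0%, with Ighg2c at 23.9% and Ighg1 at 22.6%. Without division by length they took 40.2%, 23.6%, and 21.6% of counts. Saline tumor 1 had Igha at 19.8% (15.997 to 24.2) and Ighg1 at 19.0% (15.3 to 23.4), on 314 heavy chain counts. In saline tumor 3, Ighg1 and Ighg2c were at 7.72% (6.45 to 9.23) and 7.35% (5.71 to 9.42), or at 13.3% and 6.28% with lengths of the secreted forms. The 4 IgG genes together took 28.0%, 67.8%, 16.02%, and 85.3% in saline tumors and 3.67%, 4.32%, 1.45%, and 4.77% in mAb-DXd/IMQ tumors, with no overlap. Igha took 10.99%, 11.6%, 4.97%, and 8.52% in mAb-DXd/IMQ tumors, within the saline range of 0.745% to 19.8%. This overlap rested on saline tumor 1. Saline tumors 2, 3, and 4 were at 1.82%, 3.39%, and 0.745%, below each mAb-DXd/IMQ tumor. With lengths of the secreted forms the Igha shares of mAb-DXd/IMQ tumors were 18.6%, 19.6%, 9.06%, and 14.8%. The saline range was then 1.01% to 26.9%, again with saline tumor 1 at the top. For Ighg3, 0 counts were seen of 3002 heavy chain counts in saline tumor 2, which allows a share of up to 0.0999% of counts. Such limits set a count of 0 at 3 counts and differ from the bounds of the Wilson intervals.

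Within IgG, the Ighg1 share was 68.0% (58.0 to 76.5), 93.6% (92.4 to 94.6), 48.2% (40.9 to 55.7), and 19.6% (18.9 to 20.4) in saline tumors. In mAb-DXd/IMQ tumors it was 60.8% (45.2 to 74.4), 33.5% (19.99 to 50.4), 0% (0 to 22.02), and 41.5% (20.6 to 66.0), on 40, 32, 11, and 14 IgG counts. The groups overlapped. The intervals of the mAb-DXd/IMQ tumors were wide, and those of tumors 1 and 3 did not overlap. The means of 57.4 ± 31.2% and 33.9 ± 25.4% (SD, n = 4 each) differed by -23.4 percentage points (exact permutation test, p = 0.286, adjusted p = 0.286 over 3 shares). With 0 of 11 counts in mAb-DXd/IMQ tumor 3, a share of up to 27.3% of counts is allowed.

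Among light chains, the kappa share, of Igkc over Igkc, Iglc1, and Iglc2, was 99.0% (96.3 to 99.7), 98.9% (98.1 to 99.4), 100% (98.1 to 100), and 99.4% (99.2 to 99.5) in saline tumors. It was 87.3% (71.5 to 95.0), 100% (94.0 to 100), 89.0% (77.9 to 94.9), and 81.3% (67.9 to 89.9) in mAb-DXd/IMQ tumors, on 28, 60, 53, and 43 light chain counts. Lower shares were seen in 3 of the 4 mAb-DXd/IMQ tumors, and tumor 2 was at the top of the saline range. The means of 99.3 ± 0.504% and 89.4 ± 7.80% (SD, n = 4 each) differed by -9.91 percentage points (exact permutation test, p = 0.143, adjusted p = 0.214 over 3 shares). Where neither Iglc1 nor Iglc2 had a count, by the limit of 3 counts up to 1.55% of 194 counts in saline tumor 3 and up to 5% of 60 counts in mAb-DXd/IMQ tumor 2 could be of these genes, slightly less than the Wilson intervals allow. Iglc3, a further lambda gene outside these shares, had 0, 2, 1, and 20 counts in saline tumors and 0 in each mAb-DXd/IMQ tumor. With it the saline shares were 99.0%, 98.7%, 99.4%, and 99.1%, and the difference was -9.64 percentage points (exact permutation test, p = 0.143), a comparison added after the data were seen.

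**Figure D4:**
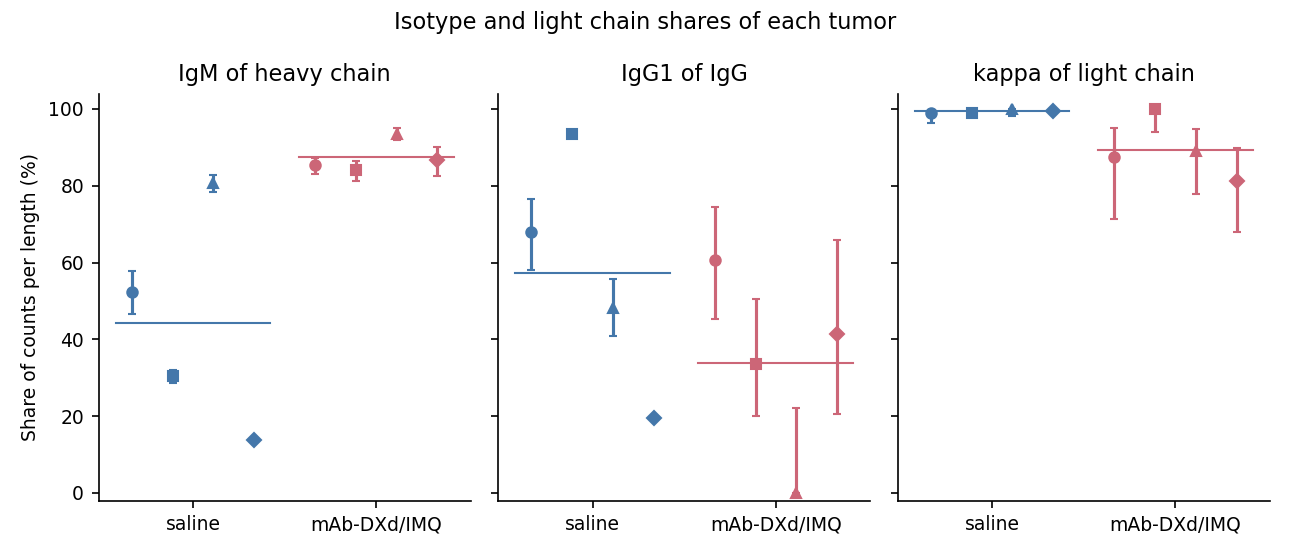
IgM share of heavy chain, IgG1 share of IgG, and kappa share of light chain counts per length (percent) in each tumor, with 95% intervals of counting error and a line at each group's mean. For IgM the mAb-DXd/IMQ tumors at 84.1% to 93.6% lie above the saline tumors, and for IgG1 and kappa the groups overlap.

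Ratios of heavy to light chain counts were compared after the values were seen and are given with no test, and some of them separated the groups. Ighm per length over Igkc per length was 0.238, 0.194, 1.25, and 0.0427 in saline tumors and 8.19, 2.38, 3.84, and 1.85 in mAb-DXd/IMQ tumors. Ighm counts thus exceeded Igkc counts per length in each mAb-DXd/IMQ tumor and in saline tumor 3. The summed heavy chain genes over the summed light chain genes gave 0.451, 0.632, 1.55, and 0.305 in saline tumors and 8.38, 2.84, 3.65, and 1.73 in mAb-DXd/IMQ tumors. Jchain over Igkc was steadier, at 0.0853, 0.0628, 0.0610, and 0.0455 in saline tumors and 0.141, 0.0775, 0.148, and 0.0746 in mAb-DXd/IMQ tumors, and these ranges overlapped. Igha over Igkc was 0.0901, 0.0117, 0.0524, and 0.00229 in saline tumors and 1.06, 0.329, 0.204, and 0.182 in mAb-DXd/IMQ tumors. These ranges did not overlap. The 4 IgG genes over Igkc did not separate the groups, at 0.127, 0.433, 0.248, and 0.262 in saline tumors and 0.352, 0.123, 0.0594, and 0.102 in mAb-DXd/IMQ tumors.

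**Figure D5:**
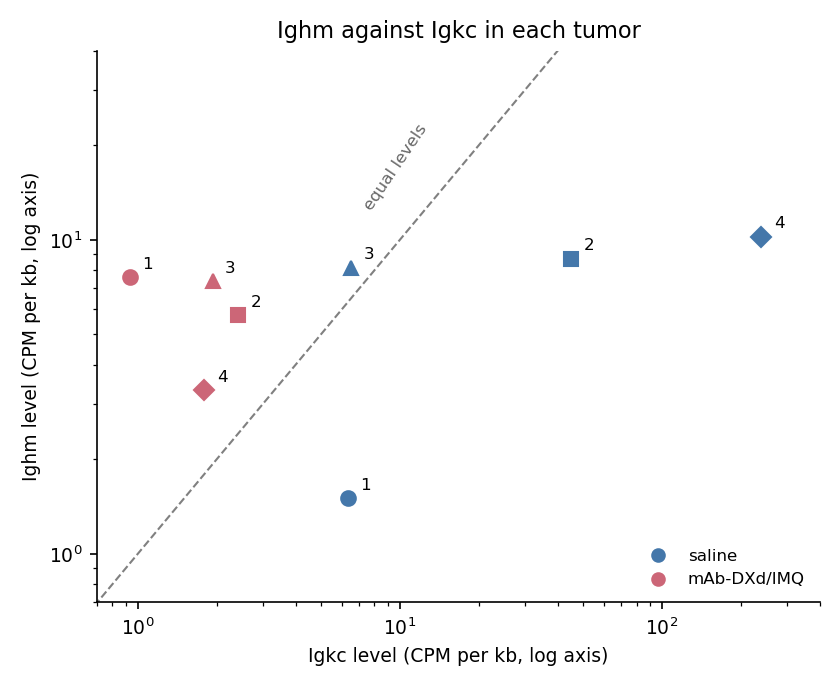
Ighm against Igkc level (CPM per kb, both log axes) in each tumor, numbered by replicate, with a dashed line of equal levels. The 4 mAb-DXd/IMQ tumors and saline tumor 3 lie above the line, and Igkc spans 0.930 to 240 CPM per kb while Ighm spans 1.504 to 10.2.

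Of the other constant genes, 4 had a row and 0 were tested. Ighd, the constant gene of IgD, had 55 counts in saline and 21 in treated tumors. Ighe, of IgE, had 19 and 0 counts, Iglc3 had 23 and 0 counts, and Iglc4 had 0 counts in 8 tumors. In mAb-DXd/IMQ tumors 3 counts correspond to 0.0619 to 0.0843 CPM, and lower levels of Ighe and Iglc3 were not detectable.

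Variable segments were counted in the same tumors. Heavy chain variable counts summed to 21, 56, 35, and 712 in saline tumors and 2, 5, 59, and 2 in mAb-DXd/IMQ tumors, so that mAb-DXd/IMQ tumor 3 was above 3 of the 4 saline tumors in counts. Lambda variable counts summed to 10, 33, 2, and 198 in saline tumors and 0, 0, 0, and 1 in mAb-DXd/IMQ tumors. Kappa variable counts summed to 45, 644, 89, and 2767 in saline tumors and 11, 11, 28, and 0 in mAb-DXd/IMQ tumors, and Igkv4-53 held 85.9% (95% Wilson interval 83.0 to 88.3) of them in saline tumor 2 while Igkv3-1 held 43.2% (41.4 to 45.1) in saline tumor 4.

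The 5 tested genes outside the immunoglobulin loci whose pattern was most like Igkc, by the smallest root mean square difference of centered log2 CPM over 8 tumors, were Jchain (0.56), Mzb1 (1.42), Gm2682 (1.43), Izumo1r (1.47), and Slc6a2 (1.54). Ighg1, Ighm, and Igha differed from Igkc by 1.60, 2.36, and 2.60. Apart from Jchain, a member, the listed genes were picked because they resemble Igkc over these same tumors. Their lower values in mAb-DXd/IMQ tumors and their high saline tumors follow from that choice. The tests of these genes below are therefore not separate support for the fall of Igkc. Mzb1, a chaperone of antibody-secreting cells, had 10, 25, 22, and 362 counts in saline tumors and 8, 11, 17, and 0 counts in mAb-DXd/IMQ tumors, and its log2 fold change of -3.03 did not pass (SE 1.08, adjusted p = 0.166, edgeR). As in Igkc, saline tumor 4 was the highest, and without it the log2 fold change of Mzb1 was -0.96 (adjusted p = 0.652, edgeR). Slc6a2, the noradrenaline transporter, fell by 2.25 on the log2 scale (SE 0.46, adjusted p = 0.0452, edgeR), with saline tumors 2 and 4 high. With each tumor left out in turn it passed in 1 of 8 fits, the one without saline tumor 1 (adjusted p from 0.0294 to 0.143, edgeR).

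Cells that make antibody were looked for through marker lists. Of 20 plasma cell genes, 18 were tested, and 2 were called, both higher: Fkbp11 at 0.67 (SE 0.14, adjusted p = 0.0492, edgeR) and Creld2 at 0.59 (SE 0.11, adjusted p = 0.0306, edgeR), which are general genes of the secretory pathway. With each tumor left out in turn, Fkbp11 passed in 0 of 8 edgeR fits (unadjusted p at most 0.00230) and Creld2 in 1, without saline tumor 1. At an unadjusted p under 0.05 there were 6, beside 18.9% of tested genes, a share that also applies to the counts of the other lists below. DESeq2 called 4, those 2 with Irf4 (-1.26, adjusted p = 0.0362, DESeq2) and Cd27 (-1.01, adjusted p = 0.00246, DESeq2), both lower. Cd27, a receptor also found on T cells, was named after its values were seen. The median log2 fold change of the list was -0.13, against 0.0215 over all tested genes. The list's summed level was 1049, 1040, 1014, and 1070 CPM in saline tumors and 1280, 1115, 1166, and 1044 CPM in the treated tumors. Its most abundant gene is Sdc1, which with Xbp1 is also expressed by epithelial cells, and the sum did not follow the immunoglobulin genes across tumors. On the log2 scale, Xbp1 differed by 0.023, Prdm1 by 0.049, Irf4 by -1.26, and Sdc1 by 0.31, with adjusted p between 0.131 and 0.948 (edgeR). Tnfrsf17, the BCMA receptor of plasma cells, had 0 counts in saline and 2 in treated tumors. Pou2af1, named after its values were seen, had 6, 11, 12, and 89 counts in saline tumors and 0, 0, 2, and 0 counts in mAb-DXd/IMQ tumors. It was not tested in the planned fit. With no filter on low counts it passed as lower (log2 fold change -5.12, adjusted p = 0.0312, edgeR), where 1.14% of tested genes passed in either direction. Nearly all its counts were in saline tumors, most of them in saline tumor 4, so this call is not counted as support.

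Of 22 B cell genes, 15 were tested and 0 were called by edgeR, 4 had an unadjusted p under 0.05, and DESeq2 called 3. The DESeq2 calls were Cd79b and Cd22, lower, and Pax5, higher. Pax5, a transcription factor that defines B cells, had 7, 0, 9, and 20 counts in saline tumors and 48, 14, 28, and 38 counts in mAb-DXd/IMQ tumors, with a log2 fold change of 2.25 that did not pass (SE 0.74, unadjusted p = 0.0110, adjusted p = 0.136, edgeR). Pax5 and Cd22 were named after their values were seen. The list's median log2 fold change was -0.12, and the sum was 82.3, 98.5, 85.4, and 96.8 CPM in saline tumors and 69.1, 78.7, 95.7, and 61.0 CPM in mAb-DXd/IMQ tumors, led by Cd72, which macrophages also express. The defining marker Ms4a1 was near 0, with 49 counts over the saline tumors and 10 over the mAb-DXd/IMQ tumors. Cd79a and Cd79b, the signaling chains of the B cell receptor, differed on the log2 scale by -0.12 (adjusted p = 0.923, edgeR) and -1.53 (adjusted p = 0.128, edgeR). The part of B and plasma cell numbers in the fall of Igkc and Ighg1 was not tested.

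Of 16 genes of class switching and B cell help, 13 were tested and 0 were called by edgeR, with 4 at an unadjusted p under 0.05, 2 called by DESeq2, and a median log2 fold change of 0.025. The DESeq2 calls, named after their values were seen, were Cd40, higher, and Gcsam, lower, and Cd40 also passed in edgeR with no filter on low counts (adjusted p = 0.0425). The log2 fold change was 0.29 for Ung, -0.39 for Bcl6, and 0.26 for S1pr2, with adjusted p between 0.224 and 0.344 (edgeR). Among receptors and partners of polymeric immunoglobulin, 1 of 4 was tested: Pigr, which carries IgA and IgM across epithelium, had a log2 fold change of 0.51 (SE 0.61, adjusted p = 0.702, edgeR). Fcamr, Fcmr, and Cd5l had 8, 12, and 6 counts in saline tumors and 15, 6, and 13 in mAb-DXd/IMQ tumors.

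Markers of other tissue that a tumor sample can hold were read in the same way. Of 8 T cell genes, 2 were called by edgeR, Cd4 and Cd8a, both lower, 7 had an unadjusted p under 0.05, and DESeq2 called 6. Each of the 8 had a negative log2 fold change, and the median was -1.03. Cd4 and Cd8a passed in 5 of 8 edgeR fits with a tumor left out, and did not without saline tumor 3, saline tumor 4, or mAb-DXd/IMQ tumor 4 (adjusted p at most 0.0846). The list's sum was 76.6, 116, 110, and 100 CPM in saline tumors and 66.2, 55.2, 35.02, and 48.2 CPM in mAb-DXd/IMQ tumors, lower in each mAb-DXd/IMQ tumor, but without the excess of saline tumor 4 seen for Igkc. For lymphoid tissue stroma, 3 of 7 genes were tested and 0 were called by edgeR, with 1 at an unadjusted p under 0.05 and 1 called by DESeq2. Chst4 and Ccl19 had 0 counts in each tumor, Madcam1 had 12 and 25 counts, and Glycam1 had 12 and 10 counts over the saline and the mAb-DXd/IMQ tumors. Other genes of the list had counts. Ccl21a, a chemokine of lymphatic vessels and lymph nodes, had 37, 123, 4, and 0 counts in saline tumors and 2, 68, 71, and 0 counts in mAb-DXd/IMQ tumors, with high and low tumors in both groups. Cxcl13, a chemokine that attracts B cells, had 361, 94, 170, and 498 counts in saline tumors and 12, 80, 99, and 40 counts in mAb-DXd/IMQ tumors. Cxcl13 differed by -1.91 on the log2 scale and did not pass (SE 0.58, unadjusted p = 0.00738, adjusted p = 0.116, edgeR), and it was the gene called by DESeq2 (adjusted p = 0.00986). Both were named after their values were seen, and their part in the immunoglobulin values was not tested. Keratinocyte (3 tested), adipocyte (5), skeletal muscle (6), and epithelial tumor cell genes (5) had 0 calls by edgeR, 0 at an unadjusted p under 0.05, and 0 calls by DESeq2, with medians of 1.04, -0.63, -0.29, and 0.17. The epithelial genes Epcam, Krt8, Krt18, and Krt19 had mean levels of 374, 654, 637, and 41.5 CPM in saline tumors and 508, 657, 718, and 50.9 CPM in mAb-DXd/IMQ tumors, so that markers of epithelial tumor cells were high in both groups. Keratinocyte genes summed to 208, 32.3, 147, and 98.5 CPM in saline tumors and 214, 517, 222, and 99.3 CPM in mAb-DXd/IMQ tumors. They were highest in mAb-DXd/IMQ tumor 2 and lowest in saline tumor 2. Skeletal muscle genes summed to 397, 38.3, 322, and 178 CPM in saline tumors and 309, 69.4, 157, and 225 CPM in mAb-DXd/IMQ tumors, and adipocyte genes to 24.2, 14.95, 16.96, and 22.3 CPM against 15.6, 23.1, 10.4, and 16.8 CPM. Muscle genes were lowest in saline tumor 2, and adipocyte genes were similar in saline tumors 1 and 4. The part of keratinocyte, muscle, and adipocyte tissue in the immunoglobulin values was not tested further.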

How the data were processed

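Per the labels, messenger RNA was purified with poly-T beads and sequenced on an Illumina instrument. The table the authors deposited holds unnormalized read counts for each gene in each tumor, beside a gene length that joins all exons. The submitters' processing notes name mm39, HISAT, HISAT2, and TopHat2. Gene coordinates of the table match GRCm38 instead, with 98.3% of the 54409 genes found in GENCODE M21 at the same position. Strandedness, the read counter, and versions are not given in the sources used here, so reads of overlapping or antisense genes cannot be told apart.

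Tests were run in edgeR 4.0.16 and DESeq2 1.42.0 (R 4.3.3), and intervals came from scipy. The edgeR version is older than that of the study. Counts were filtered with filterByExpr (minimum count 10, minimum total 15), scaled by TMM, and compared with edgeR's quasi-likelihood F-test at the study's thresholds, without covariates. The SE was derived from the F statistic. Shares used counts divided by deposited gene length and a two-sided exact permutation test of group means. The floor was 3 counts. On simulated data, 89% of 200 changed genes were recovered, with 18093 genes run. No tumor pair was a duplicate (28 pairs compared). The labels give no batch, and each tumor was taken as 1 animal.

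The members and lists were chosen with earlier results of these data known. Named genes were the 10 members, the other constant genes, the first 4 genes of each list with those past the thresholds, and the 5 genes most like Igkc. Of these, 2 list genes are not reported here. Alternatives were other size factors, DESeq2, no filter, a replicate block, shares without length, the total as library size, medians, and leaving out each tumor. Shares and orders with lengths of the secreted forms, orders by median, and a kappa share with Iglc3 were added after the data were seen.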

Additional observations from a re-analysis of the deposited data

Results flagged for a closer look

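In 7 of 56 groups of 4 values, 1 tumor lay far from the other tumors of its group. For independent and normally distributed values about 1 in 20 groups, or 2.8, would do so. The groups here share tumors and some share genes, and the values need not be normal. The 7 groups against 2.8 therefore do not measure an excess over chance. The gap to the nearest tumor, as a fraction of the group's range, was 0.999 for Ighg3, 0.975 for Ighg2c, and 0.834 for Igkc, each time with saline tumor 4 the highest in CPM. It was 0.838 for the ratio of Ighm to Igkc in saline tumors, where tumor 3 had 1.25 and the others at most 0.238. In mAb-DXd/IMQ tumors it was 0.831 for the ratio of Igha to Igkc, where tumor 1 had 1.06 and the others at most 0.329. The fraction was 1 for Iglc1, which had 2 counts in mAb-DXd/IMQ tumor 3 and 0 in the other tumors of that group. With 3 values at 0 the fraction is 1 whatever the remaining count, and 2 counts are below the floor of 3 counts. This group is still among the 7. The fraction was 0.860 for the lymphoid tissue stroma list, with 15.6 CPM in mAb-DXd/IMQ tumor 3 and at least 17.8 CPM in the others.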

How the results depend on the processing

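The direction of the fold change did not turn under any alternative for Igkc, Ighg1, Jchain, Ighm, or Igha. Among all genes, 787 passed with DESeq2, 358 without the filter, and between 10 and 203 with each tumor left out, against 197 in the planned fit and 203 with other size factors. Of the members, 3 passed with DESeq2 (Ighg1, Igkc, and Jchain) and 4 without the filter, where each of the 10 members was tested and Ighg2c was at -7.15 on the log2 scale (edgeR, adjusted p = 0.0183). No mAb-DXd/IMQ tumor reached the filter level for Ighg2c, and 96.3% of its saline counts came from saline tumor 4. Its call is therefore not counted as support. With each tumor left out, between 0 and 4 members passed in edgeR, with Igkc, Ighg1, and Jchain at an unadjusted p under 0.05 in each fit, as were 13.8% to 21.8% of tested genes. Ighg2b and Ighg2c entered such fits only through saline tumors.

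Tumors with the same replicate number did not deviate together, with correlations of -0.17, -0.055, 0.079, and -0.067, and not every tumor correlated best with its own number. The numbers thus gave no sign of a pairing, and they were not used as one in the planned tests. The labels give only a sample number, and 4 such correlations cannot exclude a pairing. With a replicate block, 14 genes and 0 members passed in edgeR (3 members and 15.4% of tested genes at an unadjusted p under 0.05), and the IgM share difference of 43.1 percentage points had p = 0.125 (exact sign-flip test over 4 numbers, where no smaller p is possible).

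With a tumor left out, the IgM share difference lay between 33.0 and 55.3 percentage points (exact permutation p of 0.0286 without each saline tumor and 0.0571 without each mAb-DXd/IMQ tumor), the IgG1 share difference between -36.0 and -11.3, and the kappa share difference between -13.4 and -7.21, with p = 0.0286 for kappa without mAb-DXd/IMQ tumor 2. Dividing by no length or by secreted-form length, and adding Iglc3 to the light chain genes, kept the direction and the side of the threshold of the 3 shares. The lengths did set the order of the IgG genes within saline tumor 4, where Ighg2c was at 35.8% of the heavy chain with deposited lengths and at 23.9% with secreted-form lengths. The summed CPM difference lay between -127 and -29.6. Depth limits the shares in mAb-DXd/IMQ tumors, which rest on at most 40 IgG counts and 60 light chain counts.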
